A study of Rattus norvegicus with 2 samples.

Results

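The non-cycling T cells of the rat jejunal epithelium fraction comprised 2037 of 20285 barcodes sequenced by scRNA-seq in droplets, 737 of 12033 from rat 1 and 1300 of 8252 from rat 2. T cells were selected on UMI counts, each unique molecular identifier (UMI) standing for 1 captured RNA molecule. A barcode was taken as a T cell when it held more than 1000 UMIs, at most 40% of them in mitochondrial genes, at least 1 UMI of Ptprc (the pan-leukocyte phosphatase CD45), at least 1 UMI summed over Cd3e, Cd3g and Cd3d, at most 10 UMIs over Epcam and the epithelial keratins (Krt8, Krt18, Krt19, Krt20), and at most 1 UMI of Mki67 and Top2a together. Other leukocytes (341 and 955 barcodes) met the same limits with 0 Cd3 UMIs, and epithelial cells (5201 and 1790 barcodes) had no Ptprc UMI and over 10 UMIs of Epcam and these keratins.

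Intraepithelial T cells lie between the enterocytes of the gut lining, where most carry the CD8 coreceptor, as a homodimer of CD8α chains or as a heterodimer of CD8α and CD8β. The integrin αE chain, encoded by Itgae, pairs with the β7 chain and binds E-cadherin on epithelial cells, and the chemokine receptor Ccr9 guides lymphocytes to the small intestine. These cells are known for cytotoxic granules, for receptors shared with natural killer cells and for chemokines such as Ccl5. Their place in the tissue was not measured here, and the word intraepithelial rests on the way the suspension was made.

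The suspension came from the proximal jejunum of male Sprague Dawley rats aged 6 to 8 weeks and weighing 180 to 200 g, which had been fasted overnight. Epithelium was shaken off in EDTA and dissociated with dispase, and no sort for leukocytes is described. Each of the 2 rats gave 1 library under 1 condition, so differences between rats are described without a test. The rats share their strain, sex, region and treatment, and no genotype or agent differs between them.

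T cells made up 7.89% of the 9345 barcodes that passed the depth and mitochondrial limits in rat 1 (95% interval 7.35 to 8.45, Clopper-Pearson) and 23.5% of 5523 in rat 2 (22.4 to 24.7). Their median depth was 1759 UMIs and 843 genes in rat 1 and 3505.5 UMIs and 1435.5 genes in rat 2. Other leukocytes held 1449 and 2845 UMIs at the median and epithelial cells 11037 and 14964.5. The software version in the file headers also differs between the libraries, 3.1.0 in rat 1 and 5.0.1 in rat 2, so the rat, its depth and its software cannot be told apart. The libraries shared 28 cell barcodes, and none of these was a T cell in both. All intervals given for shares and levels cover counting error only.

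The limits chose the levels of the genes they used, which are given as a description. Summed over T cells, Ptprc reached 911 CPM (UMIs scaled to 1000000 per class sum) in rat 1 and 977 CPM in rat 2, against 901 and 802 CPM in other leukocytes and 0 in epithelial cells. Cd3e, a signalling chain of the T cell receptor complex, was at 1225 and 1145 CPM, Cd3g at 911 and 942 CPM and Cd3d at 899 and 707 CPM. The keratin Krt8 remained at 519 and 170 CPM, Epcam at 460 and 101 CPM, and Mki67, a proliferation marker, at 28.4 and 7.85 CPM. The T cell call rested on exactly 1 Cd3 UMI in 67 cells of rat 1 and 103 of rat 2, and on Cd3g alone in 47 and 80. Cd3g was also detected in epithelial cells, at 40.3 and 11.6 CPM, while Cd3e lay at 1.68 and 1.72 CPM there. Just inside and just outside the depth limit, Cd8a stood at 451 and 784 CPM in rat 1 and at 643 and 520 CPM in rat 2. The largest set just outside was the 460 and 169 barcodes that had a Cd3 UMI but no Ptprc UMI, in which Cd8a was at 814 and 508 CPM and Ccl5 at 12451 and 10043 CPM. The 14 and 61 cycling T cells that the limit on Mki67 and Top2a kept out held 2586.5 and 8153 UMIs at the median, with Cd8a at 569 and 719 CPM and Ccl5 at 2919 and 3162 CPM.

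T cell markers that the limits did not use were present in both rats. Lck, the kinase that starts T cell receptor signalling, was at 416 and 698 CPM, Cd247, the ζ chain of the receptor complex, at 274 and 324 CPM and the adaptor Lat at 75.1 and 148 CPM. Other leukocytes also held Lck (286 and 344 CPM) and Cd247 (335 and 212 CPM), so these 2 are not particular to T cells here. Cd2, an adhesion receptor of most T cells, was low, at 6.56 and 25.2 CPM, and Cd5 was at 0 and 0.62 CPM. The symbols of the 8 T cell receptor constant chains listed matched no gene symbol in the data, so αβ and γδ T cells could not be told apart. Because UMIs were summed over cells, fewer cells that use a gene and less of its RNA per cell cannot be told apart from these levels, and shares of cells are given beside them.

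The coreceptor genes of CD8 T cells were high in T cells and low in both other classes. Cd8a, which encodes CD8α, was at 1017 CPM in T cells of rat 1 and 1133 CPM in rat 2, against 25.6 and 74.1 CPM in other leukocytes and 1.51 and 1.39 CPM in epithelial cells. Cd8b, which encodes CD8β, was at 79.5 and 65.9 CPM in T cells and at 0 and 2.32 CPM in other leukocytes. Cd4, the coreceptor of helper T cells, was at 1.46 and 3.72 CPM in T cells and 7.32 and 6.95 CPM in other leukocytes. In both rats each Cd8 gene was higher in T cells than in either other class, and Cd4 was low in both leukocyte classes.

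A Cd8a UMI was found in 72.2% of T cells in rat 1 (68.8 to 75.4) and in 75.2% in rat 2 (72.8 to 77.6). When depths were matched by drawing 1000 UMIs from every cell, the shares were 56.6% and 56.5%. They were 2.05% and 5.24% in other leukocytes and 0.135% and 0.279% in epithelial cells. Epithelial cells were chosen with 0 Ptprc UMIs and were deeper before thinning, both of which can lower their shares. Cd8b UMIs were seen in 10.6% and 11.8% of T cells and Cd4 UMIs in 2 cells (0.271%) and 15 cells (1.15%). Cells with Cd8a but no Cd8b UMI made up 63.0% and 63.5%, cells with both 9.23% and 11.6%, and cells with none of the 3 coreceptors 26.2% and 23.7%. A count of 0 in a cell does not show that the gene is off. Among the 187 T cells of rat 2 with over 5000 UMIs, 82.4% had a Cd8a UMI (76.1 to 87.5), 17.1% a Cd8b UMI (12.0 to 23.3) and 15.0% none of the 3. Foxp3, the factor of regulatory T cells, had no UMI in rat 1 and was seen in 0.0769% of cells in rat 2.

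**Figure D1:**
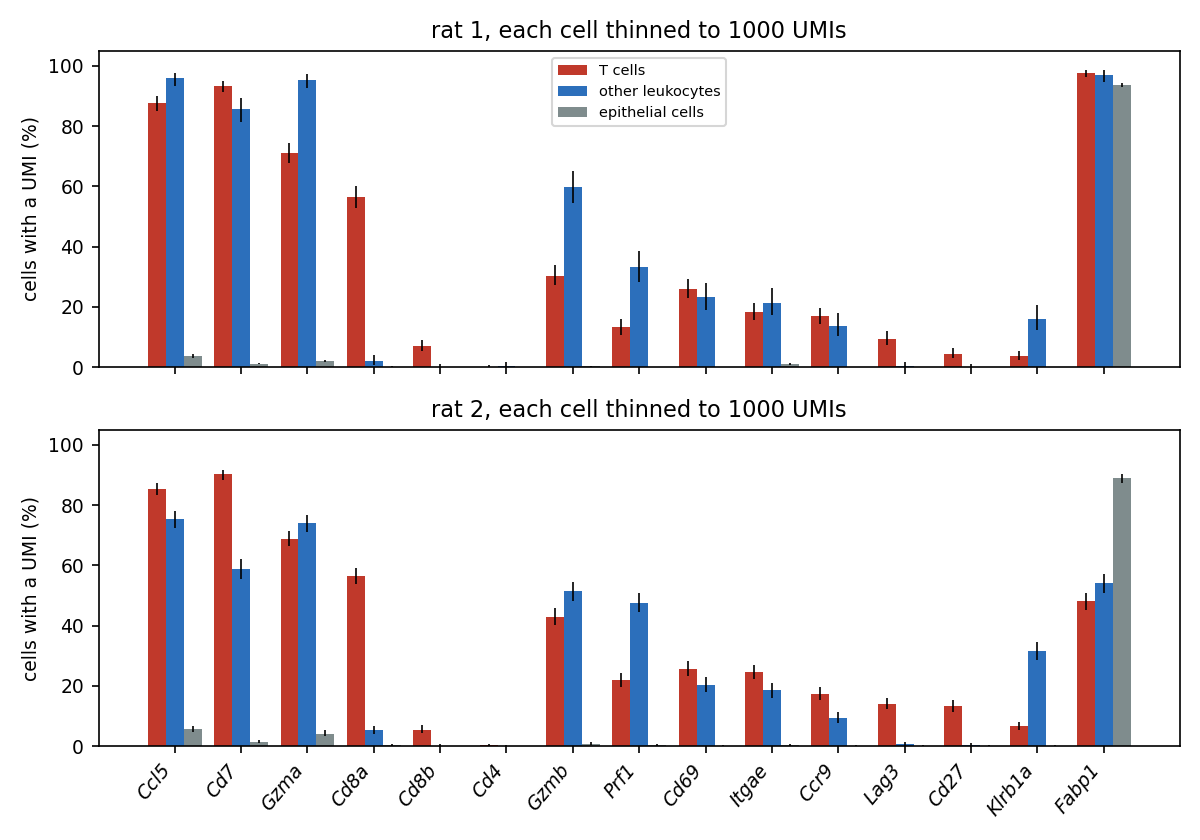
Share of cells with at least 1 UMI of each gene (y axis, percent) in T cells, other leukocytes and epithelial cells of rat 1 (top) and rat 2 (bottom), each cell thinned to 1000 UMIs, with exact 95% binomial intervals as error bars. Cd8a was seen in 56.6% and 56.5% of T cells and in few cells of the other classes, whereas Fabp1, an enterocyte transcript, was seen in all 3 classes.

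T cells were compared with other leukocytes over UMIs summed per rat and class (edgeR quasi-likelihood test on 6 sums, Benjamini-Hochberg adjustment over 10498 genes). No gene was called, 0% higher and 0% lower, while 393 genes had an unadjusted p under 0.05 and DESeq2 called 55. The 3 classes came from the same animals. With the rat as a block the edgeR test called 14 genes higher in T cells (0.133% of all tested) and 10 lower (0.0953%). Genes of that blocked fit are named below with its values and were taken up after the unblocked test gave none. Alongside the test, a gene was counted as at least 2-fold apart when it differed by that much in both rats and had 10 or more UMIs in the higher class of each. Of all genes tested, 1.02% were 2-fold higher in T cells by this count and 0.772% were 2-fold lower. The 2-fold counts of each list below stand beside these shares. The minimum was uneven, as 1 UMI was 0.73 CPM in T cells and 1.83 CPM in other leukocytes of rat 1 (0.21 and 0.33 CPM in rat 2). Genes lower in T cells thus needed a higher level to be counted. C1qb, Cd79b, Fcmr, Cxcr4 and AABR07034739.2 were over 2-fold lower in both rats and missed the count.

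Cd8a was 4.42 ± 0.42 higher on the log2 scale with the rat as a block (SE, edgeR adjusted p = 0.024, 0.169 without the block), and Cd8b 5.22 ± 0.56 higher (adjusted p = 0.028, 0.137 without it). Lag3, an inhibitory receptor of activated T cells, was at 115 and 184 CPM in T cells and 7.32 and 3.31 CPM in other leukocytes, with a blocked log2 fold change of 5.26 ± 0.54 (edgeR adjusted p = 0.024, 0.169 without it). Cd27, a costimulatory receptor of the tumour necrosis factor receptor family, stood at 56.9 and 137 CPM against 1.83 and 5.62 CPM (4.59 ± 0.38). Trat1, an adaptor that associates with the T cell receptor, was at 48.1 and 53.1 CPM against 0 and 0.99 CPM. Cadm1, a cell adhesion molecule, was at 111 and 114 CPM against 7.32 and 9.92 CPM, and Ltf, known as the secreted iron-binding protein lactotransferrin, at 108 and 120 CPM against 3.66 and 1.98 CPM.

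The other genes called higher with the block were Klrh1, Tnfrsf9, Cela1, P4ha2, Fam241a, Fam189b and Slc41a3. Klrh1, a killer cell lectin-like receptor, was at 72.9 and 114 CPM against 3.66 and 0.66 CPM, and Tnfrsf9, the costimulatory receptor 4-1BB, at 48.8 and 77.5 CPM against 5.49 and 9.59 CPM. Cela1, named for a pancreatic-type elastase, was at 210 and 179 CPM in T cells, 42.1 and 18.2 CPM in other leukocytes and 74.4 and 22.7 CPM in epithelial cells. P4ha2, a collagen prolyl hydroxylase subunit, was at 77.3 and 126 CPM against 5.49 and 15.5 CPM.

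Of the 10 genes called lower, some are B cell or macrophage genes. Cd79b, part of the B cell receptor, was at 0 and 18.2 CPM in T cells and 9.15 and 359 CPM in other leukocytes, and C1qb, a complement chain of macrophages, at 0 and 6.82 CPM against 1.83 and 254 CPM. Klrb1a, a C-type lectin receptor of natural killer cells, was at 53.2 and 89.1 CPM in T cells and 198 and 526 CPM in other leukocytes, with a blocked log2 fold change of −2.30 ± 0.28 (edgeR adjusted p = 0.033). The chemokine gene Ccl3 was at 5.10 and 13.8 CPM against 64.1 and 90.0 CPM (−3.07 ± 0.37). Fcmr, Napsa, Cxcr4, Syk, AABR07034739.1 and AABR07034739.2 were the remaining 6. In other leukocytes of rat 1, Cd79b had 5 UMIs, Fcmr 4, and C1qb and Cxcr4 1 each, so these calls rest mainly on rat 2. DESeq2 did not call Cd79b, C1qb, Fcmr, Cxcr4 or Napsa.

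The makeup of the other leukocytes moved with this comparison. The B cell and plasma cell markers summed to 65.9 and 837 CPM there and 16.8 and 49.8 CPM in T cells, and the myeloid markers to 156 and 2061 CPM against 130 and 195 CPM. Barcodes with 2 or more UMIs of these markers were 6 (1.76%) and 239 (25%) of the other leukocytes. With those barcodes left out, the blocked test called 6 genes, Cd8a, Cd27, Lag3, Cadm1, Ltf and Trat1, all higher in T cells, and Fcmr, Napsa and AABR07034739.1 turned to positive log2 fold changes. The removal was made in other leukocytes and not in T cells, where 2 and 30 such barcodes stayed, and it bears on these signs. Red cell RNA also differed. The 6 erythroid markers summed to 1928 and 6122 CPM in T cells, 28588 and 18988 CPM in other leukocytes and 767 and 2302 CPM in epithelial cells, and with barcodes over 1% of it left out the blocked count stayed at 24. A count of 0 Cd3 UMIs does not show that a cell lacks Cd3 RNA, and the part of such cells among the other leukocytes was not tested.

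**Figure D2:**
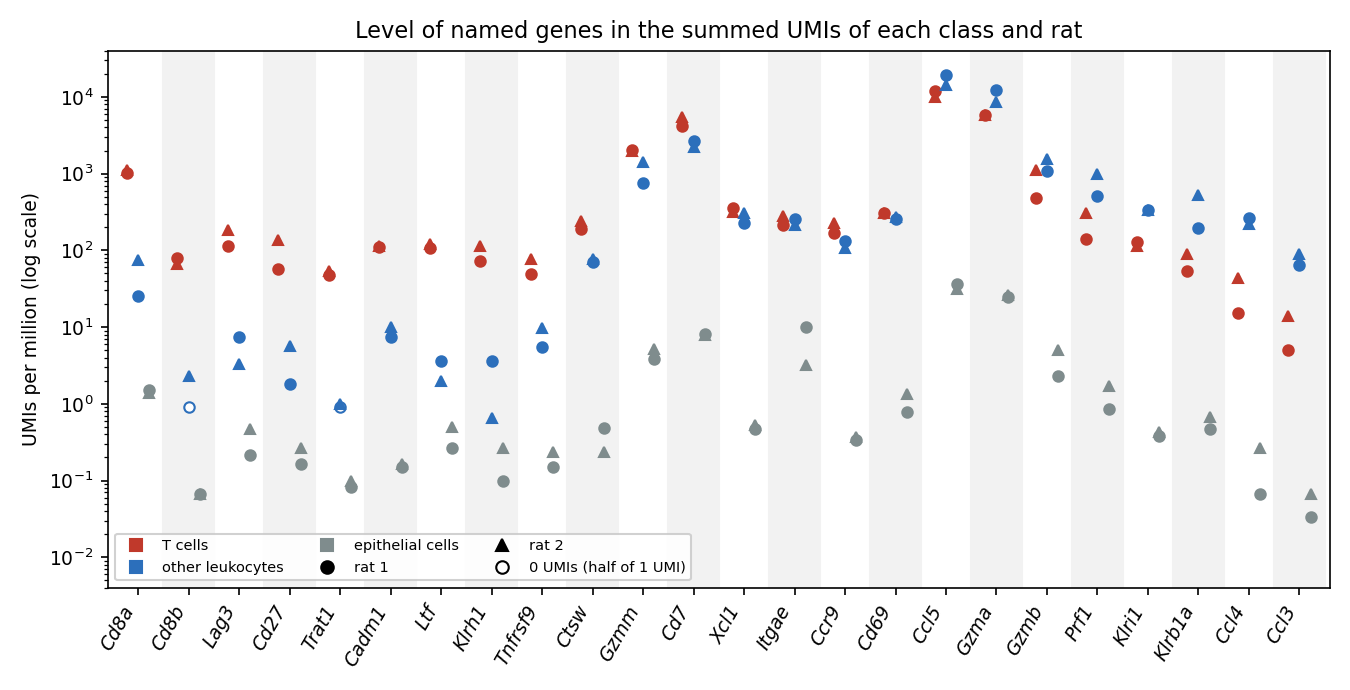
Level of 24 genes in the summed UMIs of each class (y axis, CPM, log scale) for T cells, other leukocytes and epithelial cells, with circles for rat 1 and triangles for rat 2 and open symbols for 0 UMIs. Cd8a, Cd8b, Lag3, Cd27, Trat1, Cadm1, Ltf, Klrh1, Tnfrsf9, Ctsw, Gzmm, Cd7, Xcl1, Ccr9 and Cd69 lay higher in T cells than in other leukocytes in both rats. Ccl5, Gzma, Gzmb, Prf1, Klri1, Klrb1a, Ccl4 and Ccl3 lay lower in both, and Itgae lay higher in rat 2 alone.

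Genes of T cell receptor signalling were all higher in T cells than in epithelial cells, 21 of 21 tested (edgeR without the block, adjusted p under 0.05). Over all genes that comparison called 21.3% higher and 25.5% lower. The choice of cells separates these classes by design, so the comparison describes which genes set T cells apart from epithelial cells. Other leukocytes can share such genes. Against other leukocytes, 7 of the 21 were 2-fold higher in both rats, Cd6, Ptpn22, Cd27, Zap70, Prkcq, Trat1 and Fyn, and none was 2-fold lower, with a median log2 fold change of 0.82 beside 0.02 over all genes. The list counted Cd27, a costimulatory receptor, among its members. Zap70, the kinase that binds the phosphorylated receptor, was at 128 and 197 CPM against 56.7 and 88.6 CPM, and Ptpn22, a phosphatase that restrains it, at 354 and 341 CPM against 176 and 149 CPM. Neither passed the test with the block (edgeR adjusted p = 0.214 for Zap70 and 0.225 for Ptpn22). Lck was at 286 and 344 CPM and Cd247 at 335 and 212 CPM in other leukocytes.

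Cytotoxic granule genes marked T cells against epithelial cells, with 13 of 15 tested higher, beside 21.3% of all genes. The exceptions were Lamp1 and Rab27a. Gzma, which encodes granzyme A, was at 5898 and 5764 CPM in T cells, 12477 and 8538 CPM in other leukocytes and 25 and 26.2 CPM in epithelial cells. Granzyme M, encoded by Gzmm, was at 2039 and 1998 CPM against 765 and 1414 CPM in other leukocytes. Gzmb, encoding granzyme B, was at 478 and 1111 CPM against 1087 and 1541 CPM, and Prf1, the pore-forming perforin, at 141 and 303 CPM against 509 and 976 CPM. No granule gene was called against other leukocytes. Ctsw, a cysteine protease of cytotoxic lymphocytes, was the 1 member 2-fold higher in both rats (190 and 243 CPM against 69.6 and 78.1 CPM), Prf1 was the 1 member 2-fold lower, and the median log2 fold change was −0.50. Reads of Gzmb and the near-identical Gzmbl2 may be split between them. Gzmbl3, which was not in the list, was at 5431 and 3963 CPM in T cells and 12263 and 5556 CPM in other leukocytes. Gzmbl1 was at 526 and 274 CPM against 1754 and 483 CPM.

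In thinned cells, Gzma was seen in 71.1% and 68.9% of T cells and 95.3% and 74.1% of other leukocytes. Gzmb was seen in 30.4% and 43.0% of T cells and 59.8% and 51.4% of other leukocytes, and Prf1 in 13.2% and 22% against 33.1% and 47.6%. The shares for Gzmb, Gzma and Prf1 were lower in T cells in both rats.

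Receptors and adaptors shared with natural killer cells split in both directions. Of 20 tested, 19 were higher in T cells than in epithelial cells, beside 21.3% of all genes, and Klrc1 was not called. Fcer1g and Tyrobp, signalling adaptors of innate receptors, were at 1953 and 1465 CPM and at 1339 and 983 CPM in T cells, against 2041 and 1549 CPM and 2133 and 1594 CPM in other leukocytes. Cd244, a receptor of the SLAM family, was at 396 and 342 CPM against 417 and 366 CPM. Cd160, Klrb1, Klrb1c and Klrh1 were 2-fold higher in T cells in both rats, and Klrb1a, Klrc1, Klri1 and Klri2 were 2-fold lower. Klrb1 was at 144 and 92.8 CPM against 43.9 and 14.2 CPM, and Klri1 at 128 and 112 CPM against 337 and 335 CPM. Ncr1, the receptor NKp46 of natural killer cells and some innate lymphocytes, was at 1.46 and 3.93 CPM in T cells and 9.15 and 74.1 CPM in other leukocytes. Counts within the Klr family, whose members are alike in sequence, are uncertain.

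**Figure D3:**
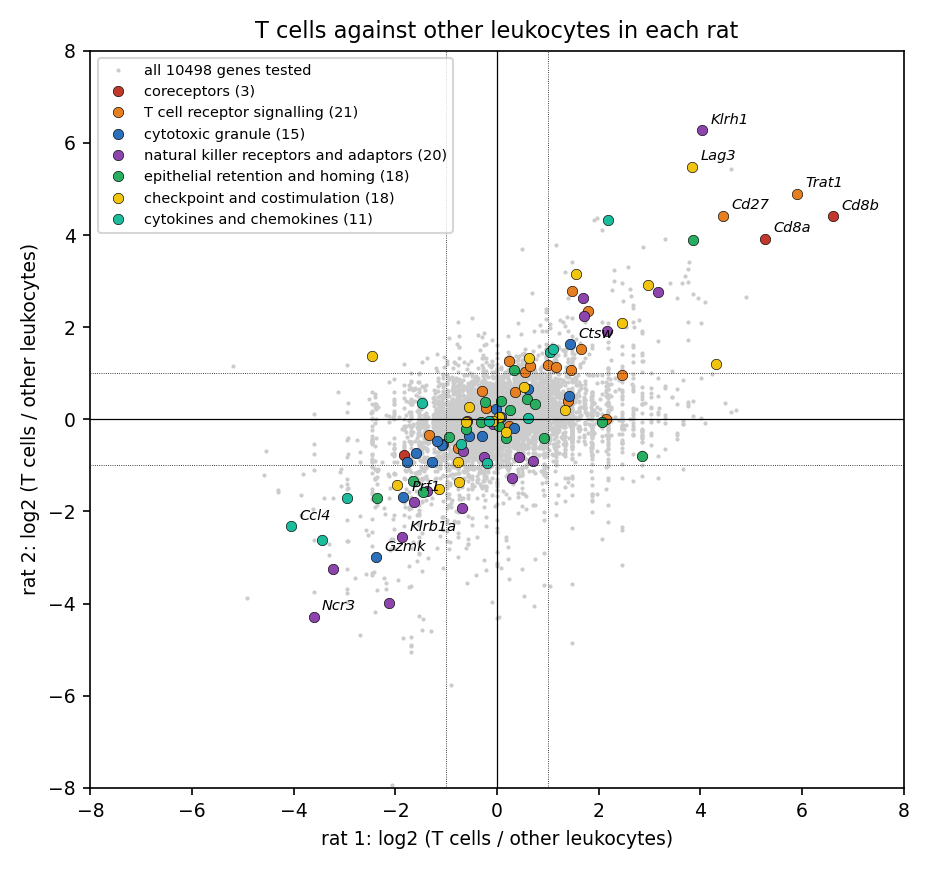
Log2 ratio of T cells to other leukocytes in rat 1 (x axis) and rat 2 (y axis), from CPM with a prior count of 2, for all 10498 genes tested (grey) and for the tested members of 7 gene lists (coloured). Dotted lines mark a 2-fold difference. Cd8a, Cd8b, Lag3, Cd27, Trat1 and Klrh1 lie at the upper right, and Ccl4, Gzmk, Klrb1a and Ncr3 at the lower left.

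No gene of retention and homing was called between T cells and other leukocytes, with or without the block. Against epithelial cells 16 of 18 tested were higher, beside 21.3% of all genes. Cd69, a retention receptor induced by activation, was at 304 and 311 CPM in T cells and 256 and 272 CPM in other leukocytes. Itgae was at 217 and 282 CPM against 256 and 216 CPM, its partner Itgb7 at 197 and 309 CPM against 130 and 227 CPM, and Ccr9 at 168 and 226 CPM against 134 and 108 CPM. Itgae UMIs were seen in 18.3% and 24.5% of thinned T cells and Cd69 UMIs in 25.9% and 25.7%. The genes of recirculation were low, with S1pr1 (the receptor for exit from tissue) at 5.10 and 10.3 CPM, and Ccr7 and Klf2 each at 0 and 0.21 CPM. Gpr15 was 2-fold higher in T cells (10.9 and 16.3 CPM against 0 and 0.33 CPM). Itga1 and Cxcr6 were 2-fold lower, with Itga1, the α1 chain of a collagen-binding integrin, at 23.3 and 36.4 CPM against 65.9 and 109 CPM.

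Of 23 transcription factor genes tested, 15 were higher in T cells than in epithelial cells and 3 (Hopx, Id3 and Zbtb7b) were lower. The shares over all genes were 21.3% higher and 25.5% lower. Ets1, a lymphocyte factor, was at 249 and 358 CPM (265 and 352 CPM in other leukocytes). Ikzf3 was at 155 and 261 CPM, and Ahr, the aryl hydrocarbon receptor that intraepithelial lymphocytes require, at 155 and 213 CPM. Runx3, which promotes the CD8 lineage, was at 86.8 and 159 CPM and Tbx21, the factor T-bet, at 33.5 and 51.0 CPM. Against other leukocytes the list had a median log2 fold change of −0.21, beside 0.02 over all genes. Of the 23, 4 were 2-fold higher in both rats, 0 were 2-fold lower and none was called. Factors of the T cell lineage were among the 2-fold higher, with Bcl11b at 27 and 51.9 CPM against 1.83 and 5.95 CPM, Tcf7 at 32.1 and 19.0 CPM against 3.66 and 0.66 CPM and Lef1 at 10.9 and 26.4 CPM against 0 and 3.31 CPM. Bcl11b was also detected in epithelial cells, at 16.2 and 6.33 CPM. Eomes had no UMI in T cells of either rat.

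T cells held UMIs of chemokine genes in both rats and few or none of most cytokine genes. Ccl5 was at 11902 and 9862 CPM in T cells, 19585 and 14348 CPM in other leukocytes and 36.6 and 31.1 CPM in epithelial cells, and its UMIs were seen in 87.7% and 85.4% of thinned T cells against 3.65% and 5.59% of epithelial cells. The mean over rats was 10882 CPM in all T cells and 8771 CPM in those over 2000 UMIs. Xcl1, a chemokine for cross-presenting dendritic cells, was at 354 and 314 CPM against 231 and 308 CPM in other leukocytes, and Ccl4 at 15.3 and 44.0 CPM against 265 and 223 CPM. Of 24 cytokine and chemokine genes, 11 had enough counts for the test, 9 of them higher and Areg lower than in epithelial cells. The shares over all genes were 21.3% higher and 25.5% lower. Ifng was at 0.73 and 0.21 CPM and Il17a at 0.73 and 2.27 CPM, and Tnf, Il22, Il21, Il13, Il5, Ltb and Fgf7 had no UMI in T cells of either rat. Il2 was at 16 and 18.8 CPM against 7.32 and 6.28 CPM in other leukocytes.

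Receptors for common γ chain cytokines were present in both leukocyte classes. Il2rb, the β chain of the interleukin 2 and interleukin 15 receptors, was at 255 and 399 CPM in T cells and 315 and 466 CPM in other leukocytes, and Il2rg at 343 and 291 CPM against 333 and 264 CPM. Il7r was at 5.83 and 5.79 CPM. Of 15 cytokine receptor genes tested, 11 were higher than in epithelial cells and Ifngr1 was lower, beside 21.3% higher and 25.5% lower over all genes. None of the 15 was 2-fold apart from other leukocytes in both rats.

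Among 18 checkpoint and costimulation genes tested, 16 were higher in T cells than in epithelial cells, beside 21.3% of all genes. Besides Lag3 and Tnfrsf9, Slamf6 and Tigit were 2-fold higher than in other leukocytes in both rats, and Slamf7 was 2-fold lower. Cd7, an immunoglobulin family receptor of early and mature T cells, was at 4167 and 5552 CPM in T cells and 2687 and 2205 CPM in other leukocytes, and Cd96 at 670 and 718 CPM against 465 and 439 CPM. Neither passed the test with the block (edgeR adjusted p = 0.783 for Cd7 and 0.898 for Cd96). The checkpoint genes Pdcd1, at 0.73 and 1.45 CPM, and Ctla4, at 5.83 and 4.34 CPM, were low.

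The genes with the largest log2 fold changes against epithelial cells, among those called and at 50 CPM or more in both rats, were Cd8b, Cd8a, Cadm1, Klrb1c, AC109737.1, Xcl1, Klrb1, Arpp21, Cd7 and Evi2a. Their log2 fold changes ran from 8.38 ± 0.45 for Evi2a to 9.17 ± 0.67 for Cd8b (SE, edgeR adjusted p = 0.000197 for Cd8b). Cd8b, Cd8a, Cadm1, Klrb1c, AC109737.1 and Klrb1 were also 2-fold higher than in other leukocytes in both rats. Xcl1, Arpp21, Cd7 and Evi2a were not, with Evi2a at 59.1 and 63.6 CPM against 62.2 and 74.4 CPM. Lymphocyte cytoskeleton and signalling genes were higher than in epithelial cells in 17 of 19 cases, beside 21.3% of all genes. Among them were Arhgdib (1532 and 1772 CPM), a GTPase regulator of blood cells, and the actin regulator Coro1a (1159 and 1483 CPM). None of the 19 was 2-fold apart from other leukocytes in both rats.

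Antigen presentation genes did not follow that pattern. Of 11 MHC class I genes tested, 1 (RT1-T24-3) was higher and 1 (Tapbp) lower in T cells than in epithelial cells, with B2m, the class I light chain, at 6756 and 6040 CPM against 5307 and 6025 CPM. The fitted median log2 fold change of these genes was −0.47. CPM were scaled to class sums alone, whereas the test added TMM scaling between sums, so the signs of the 2 need not match. Reads of the near-identical RT1 genes may be split between them. No class II gene of 5 tested was called, and Cd74, the class II invariant chain, was at 117 and 240 CPM in T cells, 324 and 4874 CPM in other leukocytes and 767 and 504 CPM in epithelial cells. Immediate-early and activation genes, which also respond to tissue handling, were higher than in epithelial cells in 8 and lower in 5 of 20 cases. Over all genes 21.3% were higher and 25.5% lower. Fos, a factor of the early response, was at 24.8 and 65.9 CPM in T cells and 238 and 246 CPM in epithelial cells (log2 fold change −3.24 ± 0.63, edgeR adjusted p = 0.00571). No heat shock gene of the 5 dissociation stress genes tested was called.

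Of 16 S phase and mitosis genes tested, 4 were higher and 1 lower than in epithelial cells, beside 21.3% higher and 25.5% lower over all genes. None was 2-fold apart from other leukocytes in both rats. The choice of cells with at most 1 UMI of Mki67 and Top2a bears on these genes. Of 6 innate lymphocyte markers tested, 5 were higher than in epithelial cells, with Kit at 78.7 and 119 CPM and Gata3 at 56.1 and 80.8 CPM in T cells. Stromal and endothelial markers summed to 1.46 and 1.24 CPM in T cells.

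T cells were then described by their own Cd8 RNA. A Cd8a or Cd8b UMI was present in 542 T cells of rat 1 and 980 of rat 2, here Cd8-positive, and absent in 195 and 320, here Cd8-negative. The split used Cd8a and Cd8b alone, and with 1 library per rat the ratios are given with intervals for counting error and no test. The Cd8-positive cells were deeper (median 1821 and 3703 UMIs against 1551 and 2885) and held more Cd3 UMIs (median 6 and 12 against 3 and 3), and the part of depth and of free Cd3 RNA in the split was not tested. Of the 335 genes compared, those below were chosen after their values were seen.

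Xcl1 was 3.79 times as high in Cd8-positive as in Cd8-negative cells of rat 1 (2.72 to 5.43) and 8.66 times in rat 2 (6.46 to 11.9). Lag3 was 1.71 times (1.11 to 2.74) and 4.45 times as high (3.36 to 6.03), Cadm1 1.72 times (1.10 to 2.77) and 4.13 times (2.92 to 6.03), and Cd27 5.95 times (2.23 to 22.4) and 3.25 times (2.44 to 4.41). Gzmm was 1.41 times as high (1.29 to 1.56) in rat 1 and 2.53 times (2.36 to 2.71) in rat 2. These 5 genes were higher in Cd8-positive cells in both rats.

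Prf1 was lower in Cd8-positive cells, at 0.26 times the Cd8-negative level in rat 1 (0.19 to 0.35) and 0.27 times in rat 2 (0.24 to 0.30). Gzmb stood at 0.41 times (0.35 to 0.48) and 0.44 times (0.41 to 0.46), Gzma at 0.48 times (0.46 to 0.50) and 0.56 times (0.55 to 0.57), and Themis, a thymocyte selection protein, at 0.33 times (0.23 to 0.48) and 0.34 times (0.24 to 0.47). Cd40lg, the CD40 ligand of helper T cells, had 0 UMIs in Cd8-positive and 4 in Cd8-negative cells of rat 1 and 7 against 68 in rat 2. Itgae was at 0.99 times in rat 2 (0.87 to 1.13) and 0.74 times in rat 1 (0.58 to 0.96), and Ccl5 was 0.66 times in rat 1 and 1.05 times in rat 2.

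Some of these ratios differed in deeper cells. Among the T cells of rat 2 with over 5000 UMIs, 155 Cd8-positive and 32 Cd8-negative, the ratios were 38.0 for Xcl1 (12.9 to 185), 35.8 for Lag3 (6.34 to 1423) and 5.31 for Gzmm (4.31 to 6.63), but 1.01 for Gzma (0.94 to 1.09), 0.57 for Gzmb (0.48 to 0.66) and 0.73 for Prf1 (0.54 to 1.00). Other RNA moved with the split. Cd74 was at 201 and 715 CPM in Cd8-negative and 90.6 and 111 CPM in Cd8-positive cells, Fcrla, a B cell gene, had 7 and 46 UMIs against 0 and 5, and Hba-a1 was 4.42 times as high in Cd8-positive cells in rat 1 and 0.43 times in rat 2. The part of B cell, myeloid and red cell RNA in these ratios was not tested.

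**Figure D4:**
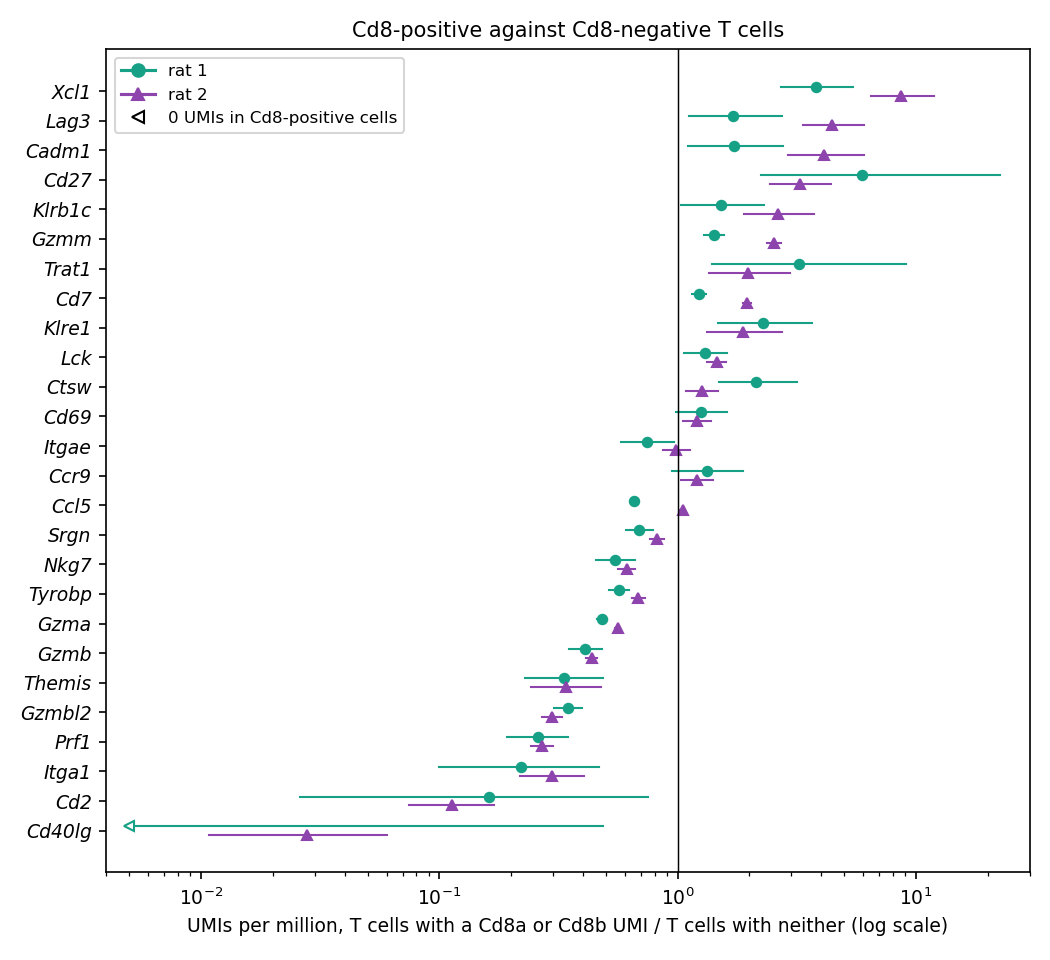
Ratio of the level in Cd8-positive to Cd8-negative T cells (x axis, log scale) for 26 genes in rat 1 (circles) and rat 2 (triangles), with exact 95% intervals for counting error as lines. Xcl1, Lag3, Cadm1, Cd27 and Gzmm lie above a ratio of 1 and Gzmb, Themis, Prf1, Itga1, Cd2 and Cd40lg below it in both rats.

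Some genes stood apart between the T cells of the 2 rats, in both directions. Zfp36l2, an RNA-binding regulator of lymphocyte activation, was at 222 CPM in T cells of rat 1 and 1174 CPM in rat 2, with 218 and 971 CPM in other leukocytes and 86.7 and 85.4 CPM in epithelial cells. Gzmb (478 and 1111 CPM), Prf1 (141 and 303 CPM) and Cd27 (56.9 and 137 CPM) were higher in rat 2, and Gzmbl2 (632 and 339 CPM), Klre1 (141 and 61.0 CPM) and Themis (87.5 and 31.2 CPM) were higher in rat 1. Gzmbl1 (526 and 274 CPM) and Gzmbl3 (5431 and 3963 CPM) were also higher in rat 1. The 17 cytotoxic granule genes of the list found in the data summed to 11140 and 11895 CPM, without Gzmbl3, which was not listed. These genes were chosen after their values were seen, and animal, depth and software version cannot be told apart.

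Enterocyte RNA was present in T cell barcodes and marked free RNA from the suspension. Fabp1, the fatty acid-binding protein of enterocytes, was at 4377 and 668 CPM in T cells, 4798 and 751 CPM in other leukocytes and 35925 and 20093 CPM in epithelial cells. Over the 13 enterocyte genes at 100 CPM or more in epithelial cells of both rats, the T cell level was 8.64% to 18.7% of the epithelial level in rat 1 (median 11%) and 3.0% to 6.71% in rat 2 (median 4.22%). The medians in other leukocytes were 12.7% and 4.95%. All 14 enterocyte genes tested were lower in T cells than in epithelial cells, and none was called or 2-fold apart between T cells and other leukocytes.

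T cell RNA was also measured in epithelial barcodes. These were chosen with 0 Ptprc UMIs and were deeper than T cells, both of which can lower the values, so no comparison with the percentages above is made. Ccl5 in epithelial cells was at 0.307% and 0.315% of its T cell level, Cd7 at 0.195% and 0.144% and Cd8a at 0.149% and 0.123%. Cd3e and Cd3d lay between 0.117% and 0.151%, and Cd3g at 4.43% and 1.23%. Thinned to 1000 UMIs, 97.6% and 48.1% of T cells had a Fabp1 UMI. Subtracting the epithelial profile from the T cell and other leukocyte sums left 17 of the 24 genes called with the block.

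**Figure D5:**
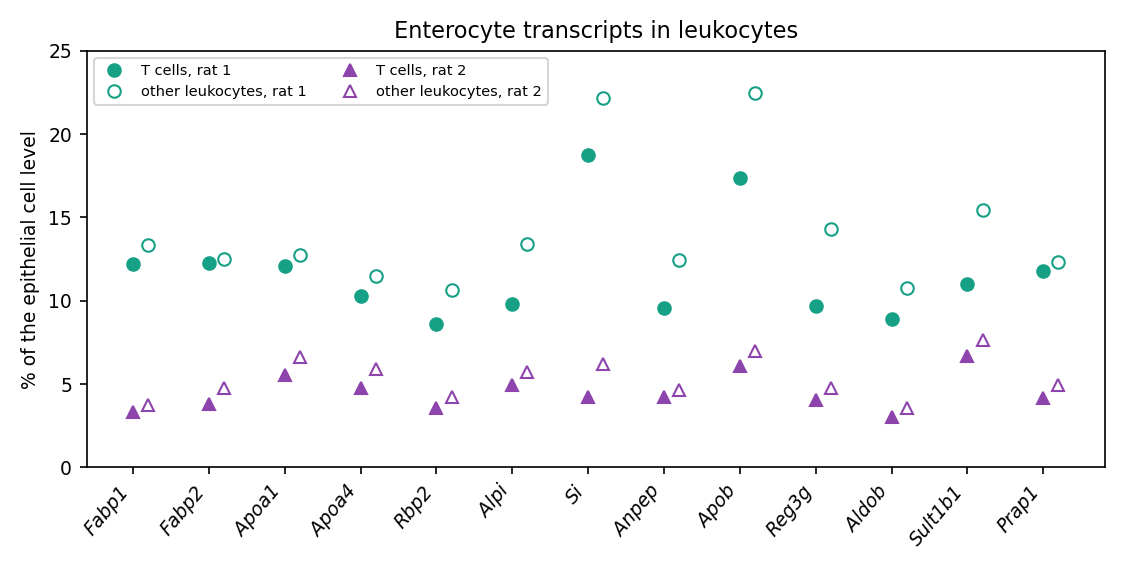
Level of 13 enterocyte genes in leukocytes as a percentage of the epithelial cell level (y axis), for T cells (filled) and other leukocytes (open) of rat 1 (circles) and rat 2 (triangles). T cells lay between 8.64% and 18.7% in rat 1 and between 3.0% and 6.71% in rat 2, below other leukocytes for each gene.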

How the data were processed

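Libraries from the proximal jejunal epithelium of 2 rats were made with a 10x Genomics 3′ kit. The authors aligned reads to the rat genome (rn6) with Cell Ranger, and the deposited values are raw UMI counts per gene and barcode, 32883 genes in each rat. The file headers carry software versions 3.1.0 (rat 1) and 5.0.1 (rat 2). The study's methods keep barcodes with 200 to 5800 genes, over 5000 transcripts and at most 40% mitochondrial transcripts. These limits leave 8218 of the 20285 barcodes in the files and 189 of the 2037 T cells, so a floor of 1000 UMIs was used here.

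UMI counts were summed per rat and class (T cells, other leukocytes, epithelial cells) and tested in one model (edgeR 4.0.16 quasi-likelihood, TMM, filterByExpr, R 4.3.3), with DESeq2 1.42.0 as an alternative, after the code was tested on simulated data. Depth per class sum was 1371585 and 4839608 UMIs for T cells, 546280 and 3023686 for other leukocytes and 60083690 and 30150853 for epithelial cells. Genes used to choose the cells and the 13 mitochondrial genes stayed in the totals and were not tested. CPM carry no TMM scaling, unlike the fitted log2 fold changes, so the 2 differ against epithelial cells. For Cd8a the log2 ratios from CPM were 9.31 and 9.58, and the fitted value was 8.70. Classes of a rat come from the same animal, and the differences between the rats correlated between classes (r = 0.483 for T cells and other leukocytes, 0.383 for T cells and epithelial cells, 0.303 for the other pair, over 10522 genes). Blocked values are therefore given for the comparison with other leukocytes. Against epithelial cells, list counts, fold changes and p-values come from the fit without the block, and only the total count is also given with it. P-values rest on 2 animals.

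The members and gene lists were chosen with earlier results of these data known. Genes were named if the choice of cells used them, if they led a list in T cell level or mark its roles, or if they had the largest fold changes among called genes at 50 CPM or more in both rats (15 per direction against other leukocytes, 10 higher than in epithelial cells). The first of these comparisons had no called gene without the block, and the genes of the blocked fit were named in its place. The 10-UMI minimum of the 2-fold count was set after the data were seen. Shares used cells thinned to 1000 UMIs (seed 11). Scrublet called 348 doublets in rat 1 (3.72%) and 2 in rat 2 (0.0362%), too few in rat 2 to rely on, and called doublets were kept. Alternatives changed depth, mitochondrial, Cd3 and epithelial limits, filters, tools and free RNA. Some genes are not reported here.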

Additional observations from a re-analysis of the deposited data

How the results depend on the processing

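The count of genes called between T cells and other leukocytes was 0 in the main test and depended on the fit. It was 24 with the rat as a replicate block (14 higher, 10 lower), 55 with DESeq2 (21 higher, 34 lower, 18 of them among the 24), 211 with no filter on low counts (47 higher, 164 lower), 1 in cells over 2000 UMIs and 16 in cells over 5000 UMIs (1 higher, 15 lower). Added after seeing the data, fits with the block gave 887 calls without the epithelial sums, 203 in cells over 2000 UMIs, 19 with free RNA subtracted, 24 without red cell RNA, 6 without B and myeloid barcodes and 32 without T cells held by Cd3g alone. Cd8a, Cd27, Lag3, Cadm1, Ltf and Trat1 were called in 5 of 5 of the block settings with all 3 classes. The cause of these moves was not tested, except that higher depth limits leave fewer cells. The other alternatives of this comparison gave 0 calls.

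Against epithelial cells 4912 genes were called, 2471 in cells over 5000 UMIs and 4491 to 6339 under the others, with 6339 under the replicate block. Leaving out a rat leaves no residual degrees of freedom, so it gives values without a test. Over 5000 UMIs rat 1 holds 2 T cells, so every mean and test there rests on those 2 for rat 1. The mean share of T cells was 15.7%, with 7.89% to 23.5% without a rat and 4.08% over 5000 UMIs. Mean Cd8a was 1075 CPM (1017 to 1133 without a rat), and 644 over 5000 UMIs, 1198 without mitochondrial genes and 1168 with free RNA subtracted. Mean Ccl5 was 10882 CPM (9862 to 11902 without a rat), and 8771 over 2000 and 4064 over 5000 UMIs. The thinned share of T cells with a Cd8a UMI was 56.5% (56.5% to 56.6% without a rat) and 73.7% with no thinning, and that of Ccl5 86.5% (85.4% to 87.7%) and 88.9%. Cells with Cd8a and no Cd8b were 63.2% (63.0% to 63.5% without a rat), 52.0% when thinned and 65.2% over 5000 UMIs in rat 2. Cells with a Cd8b UMI were 11.2% (10.6% to 11.8%), then 6.30% and 17.1%, and cells with none of the 3 coreceptors 24.9% (23.7% to 26.2%), then 41.5% and 15.0%.

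Of 1434 alternative values for the 104 named genes against epithelial cells, 18 lost the call, 46 gained it, 5 called values reversed and 1365 stayed on the same side of the threshold, although 7 values called in neither setting differed in sign. The reversed values were log2 fold changes of −0.083 for Fcrla without cells held by Cd3g alone, and, without red cell RNA, which was removed from leukocytes and not from epithelial cells so that these signs follow from the removal, −3.06 for Hba-a1, −3.19 for Hba-a3, −2.90 for Hba-a2 and −3.75 for Hbb. Against other leukocytes, where no gene was called, 270 of 2158 values gained a call and 1888 stayed uncalled, while 81 values called in neither setting differed in sign.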
